A study of Rattus norvegicus with 9 samples.

Results

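The response of rat cortical neurons to an electrical current, whichever its kind, was read from 9 RNA libraries, which are all 9 of the series. The 6 stimulated libraries, of which 3 had received a direct (DCS) and 3 an alternating current (ACS), were set against 3 unstimulated controls, with equal weight for each current. The neurons were primary cortical cells of Wistar rat embryos at embryonic day 16 to 18, grown on glass with a conductive indium tin oxide coat, and polyadenylated RNA was sequenced. By the labels, the control neurons received no current and the stimulated neurons received 3 µA for 20 min per day over 7 days. Both currents carry a 20 Hz entry in their labels, which place the cells at day 7 in vitro while the growth protocol runs to day 14. No group carried a genetic change. Whether each library is a culture of its own is not stated, and the p-values then measure only the spread among these 9 samples, which may be technical. Both currents were compared with the same 3 control libraries, so anything particular to a control library appears under DCS and ACS alike and cannot be told apart from a shared response.

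Neurons answer depolarization in waves. Immediate early genes such as Fos and Egr1 are transcribed within minutes of calcium entry, without new protein synthesis, and encode transcription factors. Later genes act on synapses, channels, axons and secreted factors, and RNA-binding proteins set how long the transcripts last.

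The totals were about 49039400 to 68690800 estimated counts per library. Pan-neuronal markers were present in every library. The highest was Tubb3, a neuronal tubulin, between 950 and 1213 FPKM (fragments scaled for exon length and library size), and the lowest Nefl, between 13.3 and 17.7. Several glial and progenitor markers were present too, with Gfap at 49.6 to 64.3 FPKM, Olig1 at 72.7 to 97.6 and Fabp7 at 540 to 682. The libraries thus held RNA of other cells besides neurons. Mitochondrially encoded genes took 6.80% and 6.65% of the counts in controls 1 and 2 but 5.56% in control 3, which lay among the 5.25% to 5.96% of the stimulated libraries. The same library stood apart in gene span. The 4071 shortest genes (up to 5.80 kb) were set against the 4071 longest (48.9 kb or more), and the difference of their median deviations, shortest minus longest on the log2 scale, was -0.0563 and -0.0626 in controls 1 and 2. In control 3 the difference was 0.0157, within the -0.0115 to 0.0429 of the stimulated libraries. The part of these measures in the results below was not tested. The main counts, and the calls in most of the lists described, are given with and without control 3.

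**Figure D1:**
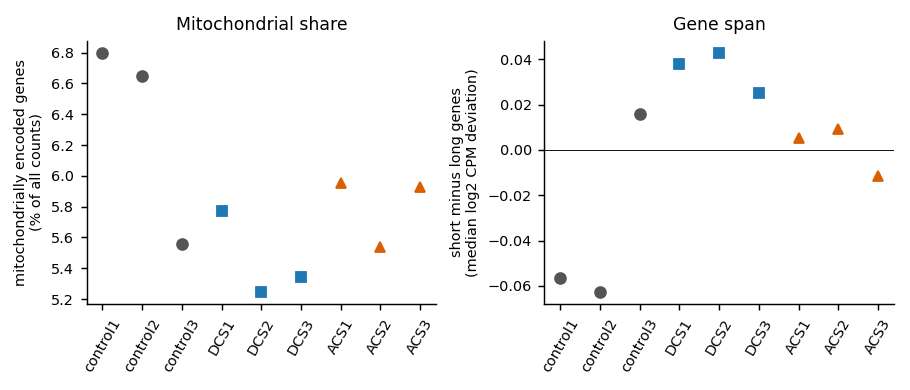
Share of counts from mitochondrially encoded genes (left, % of all counts) and median log2 CPM deviation of short minus long genes (right) in each of the 9 libraries, with circles for control, squares for DCS and triangles for ACS. Controls 1 and 2 lie apart from the stimulated libraries on both axes, and control 3, at 5.56% and 0.0157, lies among them.

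Across 16284 genes tested, 85 rose and 10 fell under either current at an adjusted p under 0.05 (edgeR quasi-likelihood test, Benjamini-Hochberg adjustment over all genes tested). These are 0.522% of the genes higher and 0.0614% lower, or 0.583% in all. The typical change was small, with a median log2 fold change of 0.42 among the genes that rose and -0.38 among those that fell, and a median of -0.0019 over all genes tested. The effect was uneven between the currents. Of the 95 called genes, 92 moved in the same direction under both, yet 91 changed more under ACS, and the median ratio of the DCS to the ACS log2 fold change was 0.34. Only 16 (0.0983% of the genes tested) met the rule for a similar size, which asks that the smaller log2 fold change be at least 0.5 of the larger, and a similar size without any call was met by 33.9% of all genes tested. A difference between ACS and DCS was called for 50 of the 95 and for 0 of the 16, of which 7 had an unadjusted p under 0.05 by edgeR. Over all genes tested, 103 (0.633%) differed between the currents. Against control alone, ACS had 678 called genes (4.16%) and DCS 2 (0.0123%), and 94 of the 95 were also called under ACS. Of those with a similar size, all 16 were called under ACS but only 1, Dennd1a, under DCS. At an unadjusted p under 0.05, 75 of the 95 passed under DCS and 94 under ACS, and over all genes tested 7.09% and 20.8% did. The 95 were called on the mean of these same changes, so nothing is read from these shares. In 57 of the 95, and in all 16 of similar size, the 6 stimulated libraries lay on 1 side of the 3 controls, which over all genes tested happened for 2.73% above and 2.46% below. This too is a description, since the 95 were called on the same comparison.

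The size of this response depended on single libraries and on the model. When the stimulated libraries were treated as 1 group of 6, so that the spread held the difference between the currents, 1 gene, Dennd1a, was called. Leaving out 1 library gave between 7 calls (without control 2) and 1004 (without control 3), against 17 without control 1, 41, 23 and 235 without DCS 1, 2 and 3, and 11, 25 and 45 without ACS 1, 2 and 3. Without control 3, 653 genes were higher and 351 lower, 754 of them met the rule of similar size, the median ratio of DCS to ACS was 0.72, and the 95 were all among the calls. The number of genes of similar size ran from 1 (without ACS 1) to 754. Called genes in the pathway lists described below numbered 22 with all 9 libraries. They numbered 5 without control 1, 2 without control 2 and 135 without control 3. List by list, only the fit without control 3 is given below, chosen because that library stood apart in the measures above. Direction held for each of the 95 genes whichever library was left out.

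**Figure D2:**
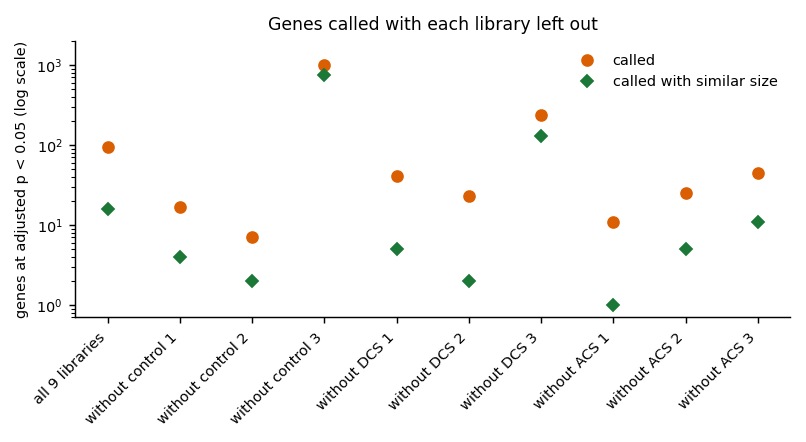
Number of genes at adjusted p under 0.05 (log scale) with all 9 libraries and with each library left out, for all called genes (circles) and those of similar size under both currents (diamonds). The counts rise from 95 and 16 to 1004 and 754 without control 3, and fall to 7 and 2 without control 2.

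**Figure D3:**
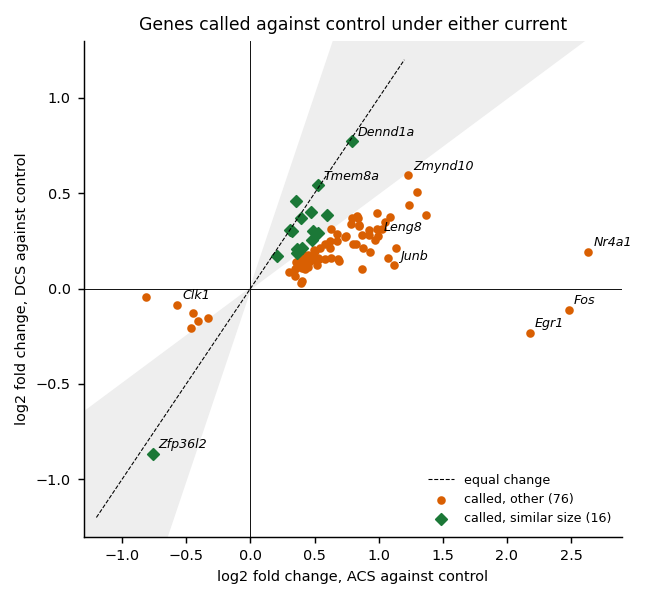
Log2 fold change against control under ACS (horizontal) and DCS (vertical) for 92 of the 95 called genes, with the 16 of similar size as diamonds and the range of similar size shaded. Most points lie below the shaded range at positive values, Dennd1a and Zfp36l2 lie near the line of equal change, and Fos, Egr1 and Nr4a1 lie far to the right near 0 under DCS. The other 3 called entries have a group listed at 0 and are not drawn.

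Dennd1a showed the clearest change common to both currents. It encodes a guanine nucleotide exchange factor of the DENN family that activates the small GTPase Rab35 at clathrin-coated pits, and its entry (ENSRNOG00000010526, chromosome 3, 22058400 to 22500765, minus strand in the deposited table, whose build is not named) was expressed in every library. Its level was 36.6, 38.1 and 36.8 CPM (counts scaled to library size by TMM) in the controls, 65.0, 64.1 and 61.4 in DCS and 65.4, 66.3 and 61.2 in ACS. All 6 stimulated libraries were thus well above the controls, with little spread in any group. The log2 fold change was 0.78 ± 0.045 (SE, n = 6 against 3, edgeR adjusted p = 9.13e-05), a 1.72-fold increase. Under DCS it was 0.77 and under ACS 0.79, and their difference of 0.02 had a 95% interval of -0.09 to 0.13. Dennd1a was called in all 9 fits that left out a library and is the one gene that was of similar size in each of them. Its end overlaps 472 bases of Crb2 on the opposite strand, an entry with 4.94% of the counts of Dennd1a.

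The lower gene of similar size was Zfp36l2 (ENSRNOG00000005067, chromosome 6, 7417425 to 7421456, minus strand), which encodes a zinc finger protein that binds AU-rich elements and promotes the decay of the transcripts that carry them. It measured 25.1, 25.2 and 19.1 CPM in the controls, 10.8, 12.1 and 15.1 in DCS and 11.9, 14.0 and 15.1 in ACS. The groups did not overlap, although control 3 was the lowest of the controls and the third library of each current the highest of its group. Its log2 fold change was -0.81 ± 0.130 (edgeR adjusted p = 0.0305), at -0.87 under DCS and -0.76 under ACS. The difference between the currents was 0.11, with an interval of -0.24 to 0.45. Without control 3 the change was -0.93, and leaving out any library other than control 3 or DCS 3 ended the call, with edgeR adjusted p up to 0.231.

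Dpysl5, a member of the collapsin response mediator family that acts on microtubules in growing axons and dendrites, was the most abundant gene of similar size (ENSRNOG00000008996, chromosome 6, 26939697 to 27024129, minus strand). It rose from 601, 677 and 640 CPM in the controls to 765, 794 and 805 in DCS and 798, 839 and 768 in ACS. Every stimulated library exceeded every control. The log2 fold change was 0.31 ± 0.045 (edgeR adjusted p = 0.0205), at 0.30 under DCS and 0.33 under ACS, and the difference lay between -0.09 and 0.14. It was called in 4 of the 9 fits that left out a library, with edgeR adjusted p up to 0.106.

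The bases before the annotated starts of these 3 genes are shown because they are the clearest, the lower and the most abundant of the genes of similar size. They are the 250 bases upstream of the start in the RefSeq annotation of GRCr8, on the coding strand, at chr3:42404604-42404853 (minus) for Dennd1a, chr6:16242372-16242621 (plus) for Zfp36l2 and chr6:31379349-31379598 (minus) for Dpysl5. Capitals mark matches on either strand to the GC box GGGCGG, the cAMP response element core TGACG, the E box CACGTG and the TATA box TATANA, and neighbouring matches may overlap.
Dennd1a: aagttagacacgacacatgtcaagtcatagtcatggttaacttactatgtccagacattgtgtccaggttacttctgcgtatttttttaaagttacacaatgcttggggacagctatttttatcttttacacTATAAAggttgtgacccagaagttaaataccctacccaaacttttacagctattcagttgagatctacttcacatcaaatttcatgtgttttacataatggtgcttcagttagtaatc
Zfp36l2: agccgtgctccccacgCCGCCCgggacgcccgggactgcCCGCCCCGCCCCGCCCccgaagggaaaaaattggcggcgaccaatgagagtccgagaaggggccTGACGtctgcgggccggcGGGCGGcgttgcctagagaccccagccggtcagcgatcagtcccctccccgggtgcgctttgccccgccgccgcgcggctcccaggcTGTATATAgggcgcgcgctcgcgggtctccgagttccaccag
Dpysl5: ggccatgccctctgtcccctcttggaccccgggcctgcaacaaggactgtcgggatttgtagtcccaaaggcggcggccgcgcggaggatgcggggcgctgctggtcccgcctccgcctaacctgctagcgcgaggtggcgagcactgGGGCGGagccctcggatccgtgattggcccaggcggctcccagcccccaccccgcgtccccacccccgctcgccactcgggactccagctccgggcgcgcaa
The Dennd1a window held 1 TATA box and no match to the other motifs. In the Zfp36l2 window there were 5 GC boxes, 1 element core and overlapping TATA matches on both strands, and Dpysl5 had 1 GC box. Of the 12600 promoter windows that matched genes tested, the GC box was present in 55.4%, the element core in 26.0%, the E box in 7.65% and the TATA box in 13.3%. Among the 81 windows of 69 genes that rose, these shares were 51.9%, 40.7%, 7.41% and 13.6%. Windows were matched for 11276 of the 16284 genes tested and 69 of the 85 that rose.

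Among the other members of similar size, 4 more were alike under both currents, with intervals of the difference that spanned 0. Tmem8a, a membrane protein that acts on GPI-anchored proteins, rose from 8.06 to 9.06 CPM in the controls to 11.2 to 13.5 in the stimulated libraries (log2 fold change 0.53 ± 0.092, edgeR adjusted p = 0.0399). Pkig, an inhibitor of protein kinase A, rose from 21.1, 21.2 and 23.0 CPM to between 26.8 and 29.8 (0.38 ± 0.058, edgeR adjusted p = 0.0249), with a difference between currents of -0.12 to 0.17. Bmyc, a relative of the Myc transcription factors, had 0.46 under DCS and 0.35 under ACS, with an interval of the difference of -0.29 to 0.07. For Abcc10, an ABC transporter of the multidrug resistance group, the values were 0.40 and 0.47. Each of these 4 was called in 2 of the 9 fits that left out a library, with edgeR adjusted p up to 0.25. Under DCS alone against control none of the 4 was called, with edgeR adjusted p of 0.510 to 0.692.

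The remaining 7 named genes of similar size leaned towards ACS, with intervals of the difference above 0. Aurkaip1, a mitochondrial ribosome protein that also binds Aurora kinase A, measured 81.7 to 87.7 CPM in the controls, 96.3 to 106 in DCS and 116 to 123 in ACS. The 3 groups were therefore stepwise, with ACS above DCS by 0.22 on the log2 scale (0.11 to 0.34). Slc22a17, the cell surface receptor for lipocalin 2, followed the same order, at 0.29 under DCS and 0.53 under ACS. Zgpat, a zinc finger repressor of transcription, had 0.39 and 0.60, and Slc37a4, the transporter of glucose 6-phosphate into the endoplasmic reticulum, 0.30 and 0.49. Xrcc1, the scaffold of DNA single strand break repair, stood just inside the rule with a ratio of 0.52 (0.19 and 0.36), and Dgkq, chosen after its values were seen, just outside with 0.499. Acd, a subunit of the telomere-capping shelterin complex, had 0.21 and 0.36, and R3hdm4 had 0.22 and 0.40. These 7 were called in 2 to 6 of the 9 fits that left out a library. Over the 14 genes, adjusted p ran from 9.13e-05 to 0.0426 by edgeR. R3hdm4 lies within Med16 on the same strand, an entry with 52.8% of the counts of R3hdm4. Its count may thus include reads of Med16 whatever the strand setting. Acd and Abcc10 overlap Carmil2 and Dlk2 on the opposite strand, entries with 177% of the counts of Acd and 60.8% of those of Abcc10. Since the strand setting of the counting is not given, the counts of Acd and Abcc10 may include reads of these.

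**Figure D4:**
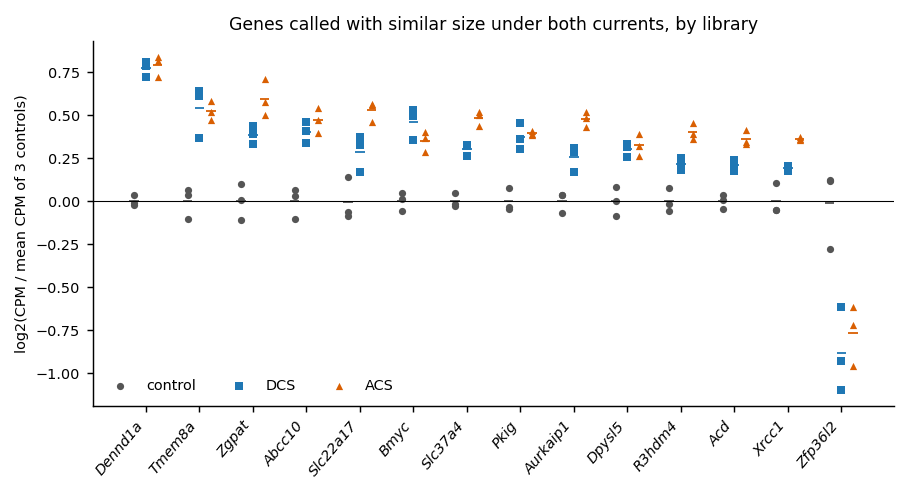
Log2 ratio of CPM to the mean of the 3 controls in each library for the 14 named genes called with similar size, with circles for control, squares for DCS, triangles for ACS and short bars for group means. All 6 stimulated libraries lie above the controls for 13 genes and below them for Zfp36l2.

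Few genes fell, so the lower side is also described by genes that were not called, taken by smallest p among those of similar size. These 11 were Rbp3, Tardbp, Zfp292, Zfp445, Chordc1, Ckap2, Cisd2, Snrpd1, Hnrnpf, Msantd3 and Polr2a, with edgeR adjusted p of 0.0502 to 0.0826. In all 11 the 6 stimulated libraries lay below the 3 controls (2.46% of all genes tested), which is a description, since the genes were taken by their p in this comparison. Tardbp, the RNA-binding protein TDP-43, measured 143, 149 and 140 CPM in the controls, 132, 126 and 133 in DCS and 121, 124 and 121 in ACS (log2 fold change -0.19 ± 0.035). Polr2a, the largest subunit of RNA polymerase II, measured 348 to 365 CPM in the controls and 290 to 330 in the stimulated libraries (-0.21 ± 0.045). For Snrpd1, a core protein of the spliceosomal particles, the change was -0.29, and for Hnrnpf, a splicing regulator, -0.16. The changes of Chordc1, a partner of the chaperone Hsp90, and Ckap2, a spindle protein, were -0.37 and -0.32. Without control 3, each of the 11 except Msantd3 (adjusted p = 0.0522) was called by edgeR, in a fit that called 2.12% of all genes lower. Over the 9 fits with a library left out, each of the 11 was called in 0 to 2, and the highest edgeR adjusted p of each was 0.245 to 0.371.

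Besides Zfp36l2, the called entries that fell were of different kinds. Clk1, a kinase of SR splicing factors, and Phf13, a reader of methylated histone H3, had log2 fold changes of -0.57 and -0.81 under ACS and of -0.08 and -0.04 under DCS. Ro60, which binds small noncoding RNAs, Csmd1, a membrane protein of the complement system, and Stag2, a cohesin subunit, were chosen after their values were seen, and had -0.29, -0.29 and -0.24 under either current. AABR07072207 has no gene symbol. Cttn, LOC103689951 and AABR07014855 are listed at 0 in all libraries of 1 group and are given no fold. The Cttn entry at chromosome 1, 215255381 to 215290845, had counts of 4487, 5520 and 5439 in the controls and 3179, 5340 and 5707 in DCS, and was listed at 0 in the 3 ACS libraries, as was the neighbouring LOC103689951. A second Cttn entry lies on the same chromosome at 217602698 to 217638152, with counts between 4723 and 5697 in all 9 libraries and an edgeR adjusted p of 0.251. Without the entries listed at 0 in every library of a group, 91 genes were called. The table also lists 45 isolated zeros, in which 1 library is at 0 and the other 8 have at least 50 counts.

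Among the called genes with a symbol outside the rule of similar size, Arhgef1, Leng8, Carmil3 and Zmynd10 had the smallest p after Cttn, and each was called in all 9 fits that left out a library. Arhgef1, an exchange factor for RhoA, measured 39.8, 41.5 and 41.2 CPM in the controls, 50.3, 49.3 and 49.3 in DCS and 72.6, 72.4 and 79.2 in ACS. No library of 1 group reached another group. The log2 fold change under either current was 0.58 ± 0.045 (edgeR adjusted p = 0.000976), and ACS exceeded DCS by 0.59 (0.48 to 0.70). Zmynd10, which takes part in the assembly of axonemal dynein arms, had 5.63 to 6.47 CPM in the controls, 8.98 to 9.30 in DCS and 13.6 to 14.9 in ACS (0.91 ± 0.089, edgeR adjusted p = 0.00328). Carmil3, a regulator of actin capping protein, had 0.40 under DCS and 0.98 under ACS, and Leng8 0.27 and 0.99. All 4 genes thus had higher values under both currents than in control, with DCS between control and ACS. Under DCS alone against control none of the 4 was called, with edgeR adjusted p of 0.510 to 0.692.

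Immediate early genes entered the comparison through ACS. Of 34 tested, 6 rose and 0 fell (against 0.522% and 0.0614% of all genes tested), with a median log2 fold change of 0.28 under either current, -0.01 under DCS and 0.59 under ACS. Fos measured 15.2, 14.1 and 20.6 CPM in the controls, 12.6, 13.3 and 20.2 in DCS and 95.6, 79.3 and 103 in ACS. The DCS libraries thus overlapped the controls and the ACS libraries lay far above both, and the 1.18 ± 0.177 under either current (edgeR adjusted p = 0.0244) averaged -0.11 and 2.48. Fos and Egr1 were called in 3 of the 9 fits with a library left out. Egr1 gave -0.23 and 2.18, and Nr4a1, a nuclear receptor, 0.19 and 2.63. Junb and Ier2 had 0.12 and 0.21 under DCS and 1.12 and 1.13 under ACS. The Ier2 entry is labelled a pseudogene in the deposited data. None of the 34 was called with a similar size, and 12 differed between ACS and DCS at an adjusted p under 0.05, against 0.633% of all genes tested. Without control 3, 14 of the 34 rose and 0 fell, 1 of them with a similar size. That fit called 3.94% of all genes higher and 2.12% lower. The genes that the study had chosen with these samples are no independent evidence of direction. Of these, 6 of 18 rose. Dmpk, the myotonic dystrophy protein kinase, had 0.16 under DCS and 1.07 under ACS.

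Among 47 splicing factors and nuclear speckle genes tested, 6 rose and 0 fell at the adjusted threshold (against 0.522% and 0.0614% of all genes tested). None was called with a similar size, and the median was 0.02. Snrnp70, a protein of the U1 particle, measured 276, 267 and 290 CPM in the controls, 322, 317 and 293 in DCS and 413, 401 and 386 in ACS (0.34 ± 0.043, edgeR adjusted p = 0.0143). Akap8l and Clasrp, an SR protein that binds Clk kinases, had 0.42 and 0.52 under either current. At an unadjusted p under 0.05, 15 of the 47 were higher and 5 lower, against 8.69% and 7.30% of all genes tested. Without control 3, 9 rose and 4 fell, in a fit that called 3.94% of all genes higher and 2.12% lower.

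Synaptic and axonal lists each held few calls, to be read against 0.522% of all genes tested called higher and 0.0614% lower. In the glutamate receptor and postsynaptic density list, 1 of 39 rose, the scaffold Shank1, from 224 to 242 CPM in the controls to 241 to 300 in DCS and 345 to 371 in ACS (0.42 ± 0.063, edgeR adjusted p = 0.0249). Its DCS and control libraries overlapped. Among 35 potassium channels 1 rose, the sodium-activated Kcnt1 (0.70), and Dpysl5 was the 1 of 34 axon growth genes. Adam11, a catalytically inactive metalloprotease relative of neuronal membranes, was the 1 of 29 matrix proteases and inhibitors, with 0.28 under DCS and 0.92 under ACS, and Dtx3, of the Deltex family of ubiquitin ligases, the 1 of 25 Notch genes (0.27). No gene was called among 31 presynaptic, 31 sodium and calcium channel, 48 axon guidance, 31 PI3K, AKT and mTOR, 34 MAP kinase, 22 neurotrophic factor and 24 late activity-induced genes by edgeR, of which 9, 12, 12, 4, 4, 1 and 1 were higher and 1, 0, 1, 1, 1, 0 and 0 lower at an unadjusted p under 0.05. Over all genes tested these shares were 8.69% and 7.30%. The fit without control 3 called 3.94% of all genes higher and 2.12% lower. In it, 3 presynaptic, 5 sodium and calcium channel, 2 MAP kinase and 2 late activity-induced genes were higher, with 0 lower. Axon guidance genes had 6 higher and 1 lower, PI3K, AKT and mTOR genes 2 and 2, and neurotrophic factor genes 0 and 0. In the DENN family, Dennd1a was the 1 of 20, and the next by p, Dennd6b (0.41), had an edgeR adjusted p of 0.0986. Without control 3, 4 DENN genes were higher and 0 lower. In the same fit, glutamate receptor and postsynaptic genes had 5 higher and 1 lower, axon growth genes 3 and 1, and potassium channels 1 and 0. Matrix proteases and inhibitors had 2 and 0, and Notch genes 4 and 0. Of the 38 pathway lists, 12 held a called gene and 3 a called gene of similar size.

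Several lists had medians below 0 under both currents without a call in that direction. Counts at an unadjusted p under 0.05 are to be read against 7.30% of all genes tested lower and 8.69% higher. All 13 mitochondrially encoded genes had negative values (median -0.12, -0.17 under DCS and -0.10 under ACS), and 0 were called by edgeR, with 5 lower at an unadjusted p under 0.05. Mt-cyb measured 7082 and 7076 CPM in controls 1 and 2, 5501 in control 3 and 5288 to 5915 in the stimulated libraries, so that control 3 lay among the latter. Without control 3, 8 of the 13 were called lower (61.5% against 2.12% of all genes) and the median was -0.24. Control 3 was set apart by its mitochondrial share, so leaving it out lowers these values by construction. Nothing is read from this count. Heat shock and oxidative stress genes had 0 calls of 37 by edgeR, 8 lower and 2 higher at an unadjusted p under 0.05, and 8 called lower without control 3. The unfolded protein list went from 0 calls of 30 by edgeR (2 lower and 1 higher at an unadjusted p under 0.05, no more than the background) to 5 lower and 1 higher. Hspa5, the chaperone BiP of the endoplasmic reticulum, had 589 and 583 CPM in controls 1 and 2, 516 in control 3 and 447 to 537 in the stimulated libraries. Cholesterol and fatty acid synthesis genes had 11 of 33 lower at an unadjusted p under 0.05, among them Idi1 (-0.26) and Cyp51 (-0.14), but 0 were called, and leaving out control 3 gave 1 lower and 2 higher. Of 32 DNA repair genes, 26 had values below 0 and only Xrcc1 was called, in the other direction. The median of all genes without control 3 was -0.00038.

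Interferon-induced genes had the lowest median of the pathway lists with more than 1 gene tested, -0.44, with 36 of 38 below 0, 0 called by edgeR and 3 lower at an unadjusted p under 0.05, a share close to the 7.30% of all genes tested. Over all genes, 8059 of 16284 were above 0. Their summed level was 608, 855 and 674 CPM in the controls, 396, 469 and 808 in DCS and 469, 459 and 560 in ACS. DCS 3 thus lay within the controls and the other 5 stimulated libraries below them. Usp18, which restrains interferon signaling, and Mx2, an interferon-induced GTPase, had -0.88 and -0.89, with edgeR adjusted p of 0.289 and 0.306.

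**Figure D5:**
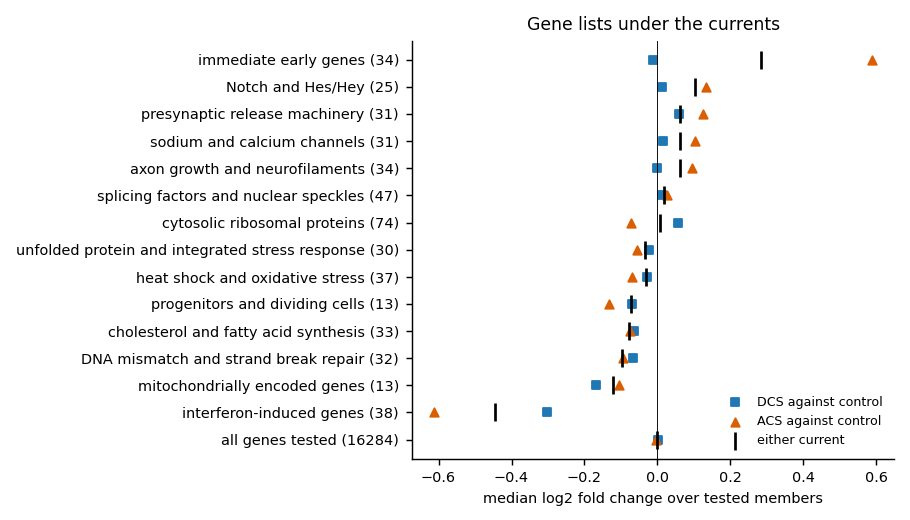
Median log2 fold change over the tested members of 14 gene lists and of all genes tested (numbers of genes in brackets), for DCS (squares), ACS (triangles) and either current (bars). Immediate early genes differ most between the currents (-0.01 and 0.59), and mitochondrially encoded and interferon-induced genes lie below 0 under both.

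Of 12 lists of cell type markers, none held a called gene by edgeR (0 of 120 markers tested, with 18 higher and 16 lower at an unadjusted p under 0.05, against 8.69% and 7.30% of all genes tested). Once control 3 was left out, 2 of 12 excitatory neuron and 2 of 14 GABAergic interneuron markers were called higher. Pan-neuronal markers then had 1 higher and 1 lower of 10. Progenitor and dividing cell markers had 2 lower of 13, and photoreceptor genes 1 lower of 16. The other marker lists held no call, and that fit called 3.94% of all genes higher and 2.12% lower. In these bulk samples fewer cells of a type and less RNA per cell cannot be told apart. Progenitor and dividing cell markers had 10 of 13 values below 0, 5 of them lower at an unadjusted p under 0.05, and summed to 1656 to 1763 CPM in the controls and 1453 to 1635 in the stimulated libraries. Mki67, a protein of dividing cells, went from 209 to 216 CPM to between 171 and 203 (-0.18, edgeR adjusted p = 0.104). Photoreceptor genes, of a retinal cell type that is not cortical, were present at low levels and summed to 14.4, 47.9 and 32.1 CPM in the controls and 9.76 to 24.95 in the stimulated libraries, so the groups overlapped. Of 16 tested, 8 were lower and 1 higher at an unadjusted p under 0.05, and the median log2 fold change was -1.07, at -1.19 under DCS and -0.92 under ACS, the lowest of any list. Rbp3, a retinoid carrier of the retina, had 34, 77 and 67 counts in the controls and 4 to 16 in the stimulated libraries, a log2 fold change of -2.47 ± 0.461. The microglial C1qa, a complement subunit, had 0.61 (edgeR adjusted p = 0.0829) in a list that summed to 224 to 229 CPM in the controls and 228 to 241 in the stimulated libraries. The part of these cells in the results above was not tested.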

How the data were processed

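RNA was measured in 9 libraries (3 control, 3 DCS, 3 ACS), grouped by their labels, which call direct current DES. The authors trimmed reads (fastp in the paper, cutadapt 1.9 in the labels), aligned them with HISAT2 2.0.4 to a rat genome whose build the table does not name, and quantified with StringTie 1.3.4d. The role of UMI-tools is not given. The deposited table holds an FPKM and an estimated count per gene and library, both computed by the authors. Of 32623 entries, 16339 were removed by filterByExpr (minimum count 10). Of counts from 1 to 15, 34.1% are 4, 8 or 12, where an even spread gives 20%.

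Estimated counts, rounded, were scaled by TMM and fitted with edgeR 4.0.16 (R 4.3.3) with a mean per group, and the mean of ACS and DCS was compared with control by a quasi-likelihood F test with Benjamini-Hochberg adjustment over 16284 genes. The comparison of both currents with control and the rule of similar size were first tried on simulated data. The p-values of the other contrasts were not checked there. Intervals are 95% and cover the spread between these samples. Library measures used an exact permutation test over 84 splits, whose smallest p is 0.0119: the mitochondrial share gave 0.0714, total count 0.226, genes detected 0.357 and the share of the 100 highest genes 0.167.

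The members and lists were chosen with earlier results of these data known. Named genes carry a symbol that is no clone or locus name, and are (a) the called genes of similar size, up to the 12 largest log2 fold changes and 6 smallest p in each direction, filled by smallest p, (b) the 5 smallest p among other called genes, (c) up to 4 genes per list by p, and (d) genes the study measured or named. Alternatives were DESeq2 1.42.0, limma 3.58.1 on log2(FPKM + 1) and log2(FPKM + 0.1), other scalings and filters, counts divided by 4, a 2-group model, a replicate block and leaving out libraries. Promoter sequences are from RefSeq (GRCr8).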

Additional observations from a re-analysis of the deposited data

Results flagged for a closer look

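The effects of ACS and DCS differed, by edgeR's test of ACS minus DCS with an adjusted p under 0.05, for 19 of the 78 genes examined. Over all genes tested the share was 0.633%. The 78 were chosen partly by p and partly for unequal size under the currents, so nothing is read from this count. On the log2 scale the difference was 2.59 for Fos, 2.44 for Nr4a1, 2.41 for Egr1, 0.998 for Junb, 0.922 for Ier2 and 0.908 for Dmpk. It was 0.719 for Leng8, 0.644 for Adam11, 0.633 for Zmynd10, 0.59 for Arhgef1, 0.586 for Carmil3, 0.565 for Clasrp, 0.523 for Akap8l, 0.408 for Shank1 and 0.365 for Snrnp70. Lower values under ACS were found for Phf13 (-0.767), Clk1 (-0.486) and Csmd1 (-0.321). The Cttn entry listed at 0 under ACS differed by -78.4 CPM.

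Among the 6 stimulated libraries, DCS 3 stood apart from the other 5 in 2 measures. For Usp18 it had 21.8 CPM against 4.83 to 9.41, a gap of 0.729 of the whole range, and it had the most genes detected, 18437, with a gap of 0.698. Chance alone sets about 1 in 20 such groups apart, and 78 genes were examined.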

How the results depend on the processing

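Median-of-ratios or upper-quartile scaling, no filter and either pseudocount of limma kept the number of called genes within 1.5 times of 95. Genes of similar size rose from 16 to 27 with a minimum mean FPKM of 1 and to 26 with counts divided by 4, fell to 9 when the smaller change had to be 0.67 of the larger, and numbered 74 when both currents needed only the same direction and an unadjusted p under 0.05. DESeq2 called 731 genes, 344 of similar size, and 242 that differed between the currents, against 50 by edgeR, and 67.7% of its calls were higher against 89.5%. Both limma fits gave 28 that differed. The 2-group model called 1. The cause of these differences was not tested, except that the 2-group model counts the difference between currents as spread.

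Same-numbered libraries of different groups had deviations that correlated between -0.0532 and 0.0631, and differently numbered ones between -0.0610 and 0.0416. Whether the numbers pair the libraries cannot be told from these values. With a replicate block 48 genes were called, 5 of them of similar size and 31 differing between the currents, and 37 of the 95 were among the 48. Leaving out 1 library gave 7 to 1004 called genes, 1 to 754 of similar size, 6 to 105 differing between the currents and 2 to 135 called genes in the pathway lists, against 22. Without both control 3 and DCS 3, chosen after seeing the data, 1762 genes were called, 1400 of similar size and 116 differing between the currents. No named gene changed direction under any of the 19 alternatives run for it. Depth limits weak genes such as Rbp3, and 3 libraries per group limit small changes.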

Other observations

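Genes called under either current were shorter and more abundant than the rest. The 85 that rose had a median span of 12.5 kb and the 16 of similar size 9.98 kb, against 18.2 kb for all genes tested. Their median levels over the 9 libraries were 17.6 and 19.7 FPKM, against 7.85. The part of length and abundance in the calls was not tested.

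Outside the lists, 2 called entries of similar size carry no gene symbol, AABR07037520 (log2 fold change 0.31) and LOC100364435 (0.19), and neither is interpreted here.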
